A study of Mus musculus with 30 samples.

Results

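Mycoplasma (g__Mycoplasma) and Ureaplasma (g__Ureaplasma), the 2 genera of the family Mycoplasmataceae, were followed through stool of Gpr15l-/- (KO) and wild-type (WT) female mice. They were chosen by name, as every sequence variant with that family in its taxon label and at least 1 read. The choice left 5 variants of the 949 bacterial variants with reads, and 2 of 98 genera. A further 18 variants of the family were listed in the counts with no read in these libraries. The V4 stretch of the 16S rRNA gene, which all bacteria carry, was amplified from stool DNA and read in 30 libraries, 5 for each genotype at each of 3 samplings.

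KO and WT females were sampled at weaning (about 4 weeks of age; libraries 1 to 5 KO, 6 to 10 WT). They were sampled again after 4 to 5 weeks in cages that held both genotypes, 2 to 7 mice to a cage (co-housing; libraries 11 to 15 KO, 16 to 20 WT). The last sampling came when the genotypes had been kept apart for 6 more weeks (re-separation; libraries 21 to 25 KO, 26 to 30 WT). Gpr15l encodes a secreted peptide of gut and skin epithelium that binds the lymphocyte receptor GPR15. The genotype rests on the label, since no read comes from the mouse gene. The labels tie no library to a cage, litter or mouse, so p-values measure the spread between these samples only. All tests treated the libraries as independent, although samplings may have repeated the same mice and mice of a group may have shared cages. No mice were kept apart during the co-housing weeks, so age and cage sharing cannot be told apart. The re-separation libraries carry another kind of library name and share 0 variants with the other 20, so the effect of time and that of the set cannot be told apart in comparisons that reach them.

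Mycoplasmas and ureaplasmas are bacteria that have lost the cell wall. They make no peptidoglycan, so beta-lactam antibiotics do not act on them, and their reduced genomes leave them dependent on a host or on neighbouring microbes for sterols, fatty acids and nucleotides. Most live attached to mucosal surfaces. Mycoplasma species gain energy by fermenting sugars or breaking down arginine, while Ureaplasma species hydrolyse urea with a urease and gain energy from that reaction.

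Bacterial reads numbered 10491 to 52364 per library at weaning and after co-housing, and 39703 to 73588 after re-separation. A share is a percent of the bacterial reads of a library, so it moves with every other taxon, and with gene copies and PCR yield as well as with cells. Reads named mitochondria, which come from host or diet, made up at most 0.829% of a library and chloroplast reads were 0. Libraries 11 and 19 had 0.0392% and 0.0687% mitochondrial reads, where the other co-housing libraries had 0.255% to 0.829%.

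Both genera were present in every library. The family took 11.4% of all bacterial reads, and Mycoplasma had more reads than Ureaplasma in 30 of 30 libraries. Mycoplasma reads ran from 259 to 12106 a library and Ureaplasma reads from 9 to 1545. Only 18 of the 98 genera had reads in all 30 libraries, and both members were among them. Mycoplasma was the leading genus in 7 libraries, 1 KO at weaning, 3 KO and 2 WT after co-housing and 1 WT after re-separation.

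Each genus rested on almost a single sequence variant. In the 20 weaning and co-housing libraries, 1 Mycoplasma variant held 64425 reads and 1 Ureaplasma variant held 3946, and both were read in 20 of 20 libraries. In the 10 re-separation libraries, 1 Mycoplasma variant held 54643 reads and 1 Ureaplasma variant 4894, both in 10 of 10. The leading Mycoplasma variant of both sets carried the species label "uncultured_rumen", while the Ureaplasma variants were labelled as an uncultured bacterium. The fifth variant, a Mycoplasma with no species label, had 7 reads in library 29 alone and was the only member below the count filter of 10 reads in 3 libraries. A genus and its variant are therefore the same counts within the weaning and co-housing set. Whether a genus has the same sequence in both sets was not tested, because the counts came without sequences.

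**Figure D1:**
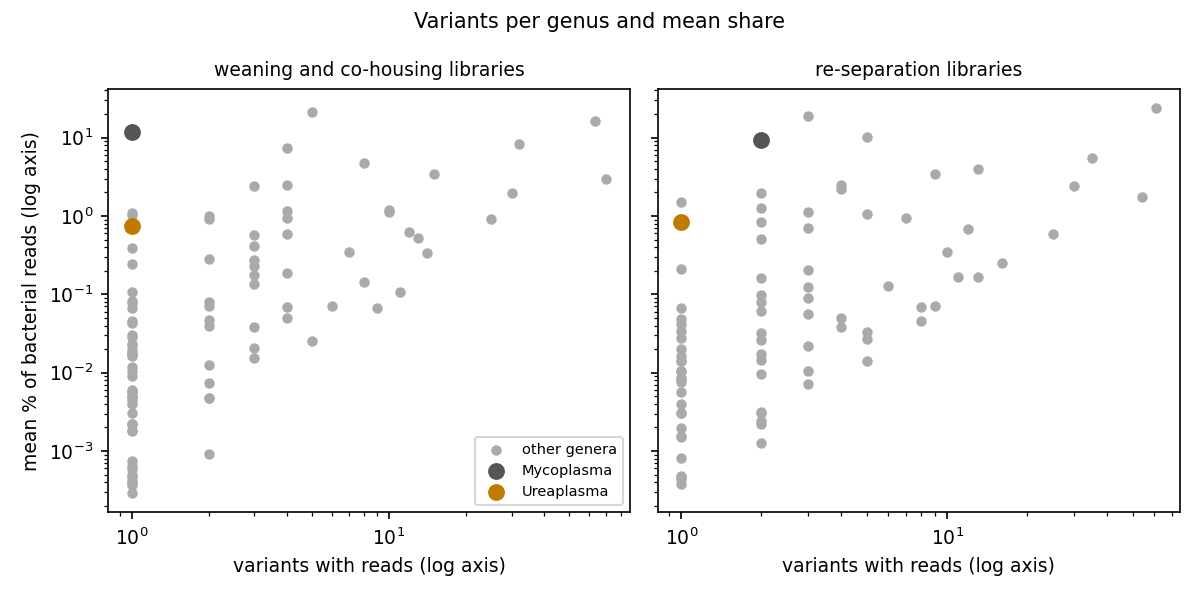
Number of variants with reads per genus (x axis, log scale) against the genus's mean percent of bacterial reads (y axis, log scale), for the weaning and co-housing libraries (left) and the re-separation libraries (right). Mycoplasma sat at 1 and 2 variants, with a mean share of 11.8% and 9.31%, and grey points are the other genera.

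Mycoplasma was abundant for a genus with so few variants, though not alone in this. It had a mean share of 11.8% in the first set, where 17 genera had a mean of 1% or more and 3 of these had 1 variant. The other 2 with 1 variant were Muribaculum, at 1.04%, and Quinella, at 1.09%. The 16 genera other than Mycoplasma had a median of 6.5 variants, up to 70, and only 2 genera (Prevotellaceae UCG-001 and Muribaculaceae) had a higher mean share than Mycoplasma. In the re-separation set the mean share was 9.31%, the others at 1% or more had a median of 5 variants, up to 61, and 3 genera had a higher mean share. Prevotellaceae UCG-001 also rested mostly on 1 variant. It had 5 variants and a mean share of 21.0% in the first set, with 93.9% of it in the leading variant. In the re-separation set it had 3 variants and 19.1%, with 96.6% in the leading variant.

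The Mycoplasma share ranged widely between libraries of the same group. At weaning it was 9.14%, 10.1%, 2.54%, 1.01% and 24.9% in KO libraries 1 to 5. It was 1.10%, 10.4%, 7.65%, 4.10% and 11.7% in WT libraries 6 to 10. The groups overlapped, and library 5, the highest, also had 0.653% mitochondrial reads, against at most 0.0709% in the other weaning libraries.

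After co-housing the Mycoplasma share was 13.7%, 31.1%, 29.4%, 5.08% and 19.5% in KO libraries 11 to 15. It was 4.94%, 16.4%, 18.5%, 3.73% and 10.9% in WT libraries 16 to 20. KO libraries 12 and 13 stood above every other library of the study, and the groups overlapped. After re-separation it was 3.07%, 2.73%, 20.8%, 12.9% and 9.68% in KO libraries 21 to 25, and 9.18%, 2.65%, 11.2%, 14.5% and 6.42% in WT libraries 26 to 30. These ranges again overlapped, with library 23 highest.

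Group means of Mycoplasma were, from the highest, 19.8% ± 10.9 (KO after co-housing), 10.9% ± 6.61 (WT after co-housing), 9.84% ± 7.53 (KO after re-separation), 9.54% ± 9.48 (KO at weaning), 8.79% ± 4.51 (WT after re-separation) and 7.00% ± 4.40 (WT at weaning; all SD, n = 5). No neighbours in that order differed by more than the larger of their SDs, which says nothing of groups further apart. The coefficient of variation within groups (SD over mean) was 0.514 to 0.994, beside a median of 0.514 to 0.910 over the genera with a mean of 1% or more in the same groups. Mycoplasma is counted in that median. It was itself the median genus in WT after co-housing (0.607) and in WT after re-separation (0.514), so the matching lower ends are the same value.

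**Figure D2:**
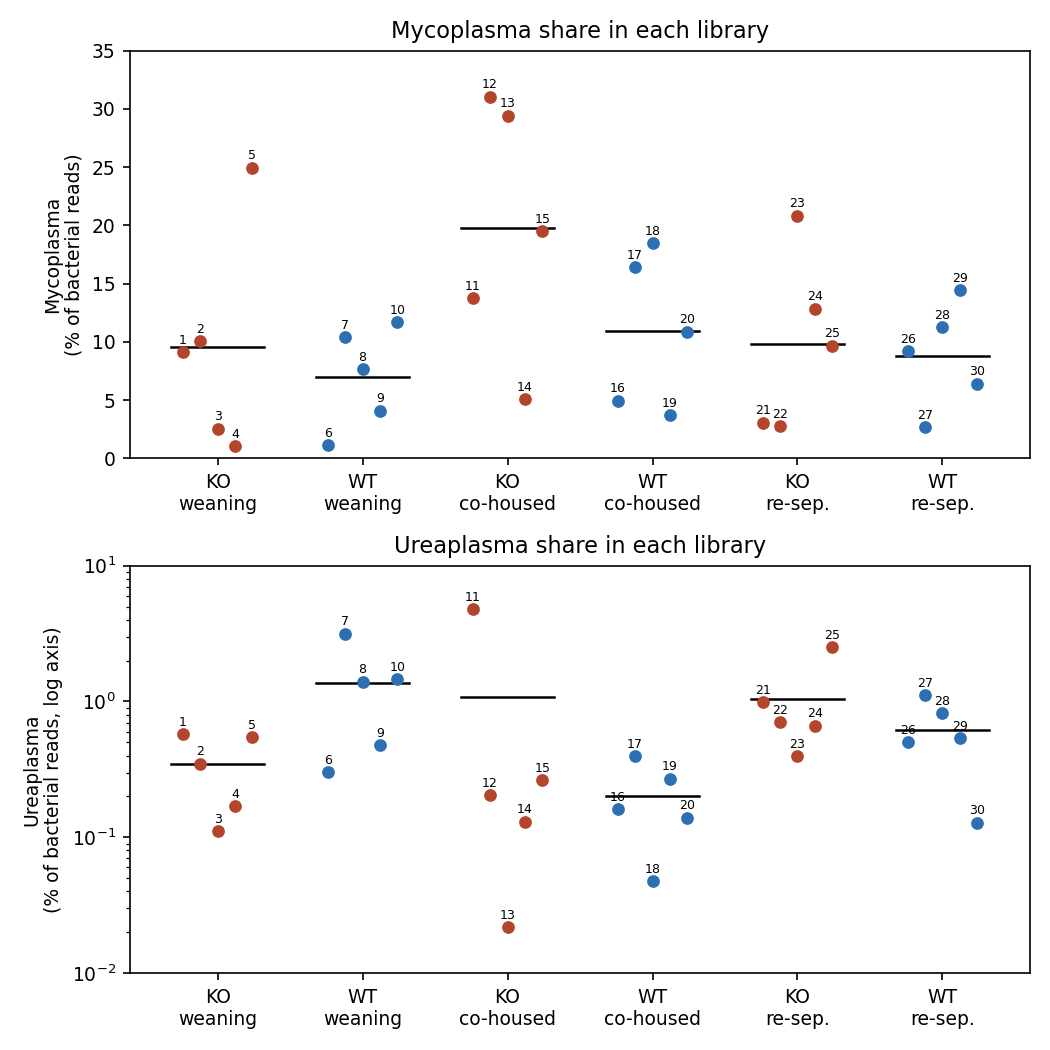
Percent of bacterial reads for Mycoplasma (top, linear axis from 0) and Ureaplasma (bottom, log axis) in each library, by group of 5, KO in red and WT in blue; numbers are libraries and black lines are group means. Mycoplasma groups overlap throughout, while in the lower panel library 11, at 4.77%, stands far above the other KO co-housing libraries, which lie at 0.0219% to 0.263%.

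Genotype and time were tested on genera with the quasi-likelihood test of edgeR, over 72 genera and all 30 libraries, with Benjamini-Hochberg adjustment at 0.05. The fitted log2 fold changes are scaled with TMMwsp factors, a trimmed and weighted comparison of genera between libraries, and not by total reads alone. The median genus therefore need not stand at 0, and a fitted value is not a change relative to the median genus. The choice matters here. For co-housing over weaning in WT the median genus stood at 0.90 on the fitted log2 scale and at 1.82 with total reads as the scale, and for KO over WT at weaning at 0 and 0.43.

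Mycoplasma was not called in any of the 12 comparisons. At weaning the log2 fold change of KO over WT was -0.53 ± 0.65 (SE; edgeR adjusted p = 0.596), in a comparison that called 23.6% of genera, and its sign turned to 0.45 with total reads as the scale. After co-housing it was 0.99 ± 0.66 (edgeR adjusted p = 0.546; 1.39% of genera called) and after re-separation 0.37 ± 0.65 (edgeR adjusted p = 0.875; 0% of genera called, with 5 of 72 at an unadjusted p under 0.05, 0 called by DESeq2 and 1 by limma-voom). The 95% intervals reached from -1.83 to 0.78, from -0.33 to 2.30 and from -0.93 to 1.67, so this spread left differences of a few fold undetectable.

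In KO mice Mycoplasma stood 1.24 ± 0.66 higher on the log2 scale after co-housing than at weaning (edgeR adjusted p = 0.136), where 31.9% of genera were called. The mean share was 2.07 times as high. Leaving out library 5, the KO weaning library with 24.9%, gave 1.78 and an adjusted p of 0.0433 in edgeR. Of the 10 single omissions only this gave a call. It removes the highest library of the lower group, which raises the difference by itself, so it adds no support. In WT mice the same comparison gave -0.28 ± 0.65 (edgeR adjusted p = 0.743; 29.2% of genera called), although the mean share was 1.56 times as high after co-housing. With total reads as the scale this value was 0.64, so its sign depends on the scaling. The change of the genotype difference from weaning to co-housing was 1.51 ± 0.93 (edgeR adjusted p = 0.316), and 4.17% of genera were called.

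In comparisons that reach the re-separation libraries Mycoplasma was not called either. Over weaning, re-separation was 0.59 ± 0.65 in KO (edgeR adjusted p = 0.647; 27.8% of genera called) and -0.31 ± 0.65 in WT (edgeR adjusted p = 0.736; 12.5% called). Over co-housing it was -0.64 ± 0.65 in KO (edgeR adjusted p = 0.501; 19.4% called) and -0.03 ± 0.65 in WT (edgeR adjusted p = 0.998; 1.39% called). The change of the genotype difference was 0.90 ± 0.92 from weaning to re-separation (edgeR adjusted p = 0.534; 18.1% called), and -0.61 ± 0.92 from co-housing to re-separation (edgeR adjusted p = 1.00; 0% called, with 5 of 72 at an unadjusted p under 0.05, 1 called by DESeq2 and 0 by limma-voom).

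Ureaplasma, the urea-splitting genus, was the member with called differences, lower in KO than in WT at weaning and lower in WT after co-housing than at weaning. In KO libraries 1 to 5 at weaning its share was 0.573%, 0.349%, 0.112%, 0.169% and 0.543%. In WT libraries 6 to 10 it was 0.302%, 3.15%, 1.40%, 0.474% and 1.46%. The 3 highest WT libraries lay above every KO library, and libraries 6 and 9 lay within the KO range. The WT mean was 1.36% ± 1.13 and the KO mean 0.349% ± 0.210 (SD, n = 5), 3.89 times lower.

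The weaning difference in Ureaplasma was called, at a log2 fold change of -2.65 ± 0.92 for KO over WT (edgeR adjusted p = 0.0273). It was 1 of the 17 genera called, 23.6% of those tested. The call was kept under 12 of 19 alternatives, with adjusted p-values from 0.0158 to 0.264. It was lost with total reads as the scale (-1.96, edgeR adjusted p = 0.0902), and without library 2 (-2.71, 0.0504), library 3 (-2.39, 0.0751) or library 7 (-2.30, 0.0670). DESeq2 size factors in edgeR (-2.47, edgeR adjusted p = 0.0609) and a fit of only the groups compared (-2.61, edgeR adjusted p = 0.0923) also lost it. So did the exact permutation test of centred log-ratios (-2.18, adjusted p = 0.264). The direction was the same under all 19.

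After co-housing the Ureaplasma share was 4.77%, 0.205%, 0.0219%, 0.130% and 0.263% in KO libraries 11 to 15. In WT libraries 16 to 20 it was 0.160%, 0.394%, 0.0473%, 0.270% and 0.139%. Apart from library 11 both genotypes lay under 0.4%. The lowest value, in library 13, came from 9 reads of 41137, with a 95% Wilson interval of 0.0115% to 0.0416% that covers counting error only. The interval in library 11 was 4.52% to 5.04%.

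The KO mean after co-housing, 1.08% ± 2.07, was 0.155% ± 0.104 over the 4 libraries other than library 11, beside 0.202% ± 0.133 (SD, n = 5) in WT. The log2 fold change of KO over WT was 2.19 ± 0.91 (edgeR adjusted p = 0.223; 1.39% of genera called). Without library 11 it was -0.51 (edgeR adjusted p = 0.895). The direction of this comparison therefore rested on 1 library, which also had the lowest mitochondrial share of its group.

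The fall of Ureaplasma in WT mice from weaning to co-housing kept its call under a larger share of its alternatives than the other 3 calls did. The mean share went from 1.36% to 0.202%, 6.71 times lower, and of the co-housing libraries only library 17, at 0.394%, reached into the weaning range, above library 6 at 0.302%. The log2 fold change was -3.45 ± 0.95 (edgeR adjusted p = 0.0105), 1 of 21 genera called, 29.2% of those tested. It was called under 18 of 19 alternatives and without each of the 10 libraries in turn (-3.80 to -3.09), with adjusted p-values of 0.000277 to 0.0571 over all 19. The exception was the exact permutation test of centred log-ratios, with a difference of -4.18 and an exact p of 0.00794, the smallest that 5 against 5 libraries can give, adjusted to 0.0571.

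Mitochondrial reads were 0% to 0.0649% of the WT weaning libraries and 0.0687% to 0.829% of the WT co-housing libraries, and genera with reads went from 42 to 56 a library to 56 to 64. Their part in the Ureaplasma result was not tested. Mycoplasma, in the same libraries, was not called.

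In KO mice the corresponding Ureaplasma value was 1.39 ± 0.88 (edgeR adjusted p = 0.220; 31.9% of genera called), and -1.30 without library 11 (edgeR adjusted p = 0.223). The change of the genotype difference from weaning to co-housing was 4.84 ± 1.29 (edgeR adjusted p = 0.00902), 1 of the 3 genera called, 4.17% of those tested. Without library 11 it was 2.14 and not called (edgeR adjusted p = 0.269). It was called under 25 of 28 alternatives, with adjusted p-values from 0.000801 to 0.269, and was lost also with limma-voom (3.22, adjusted p = 0.227).

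**Figure D3:**
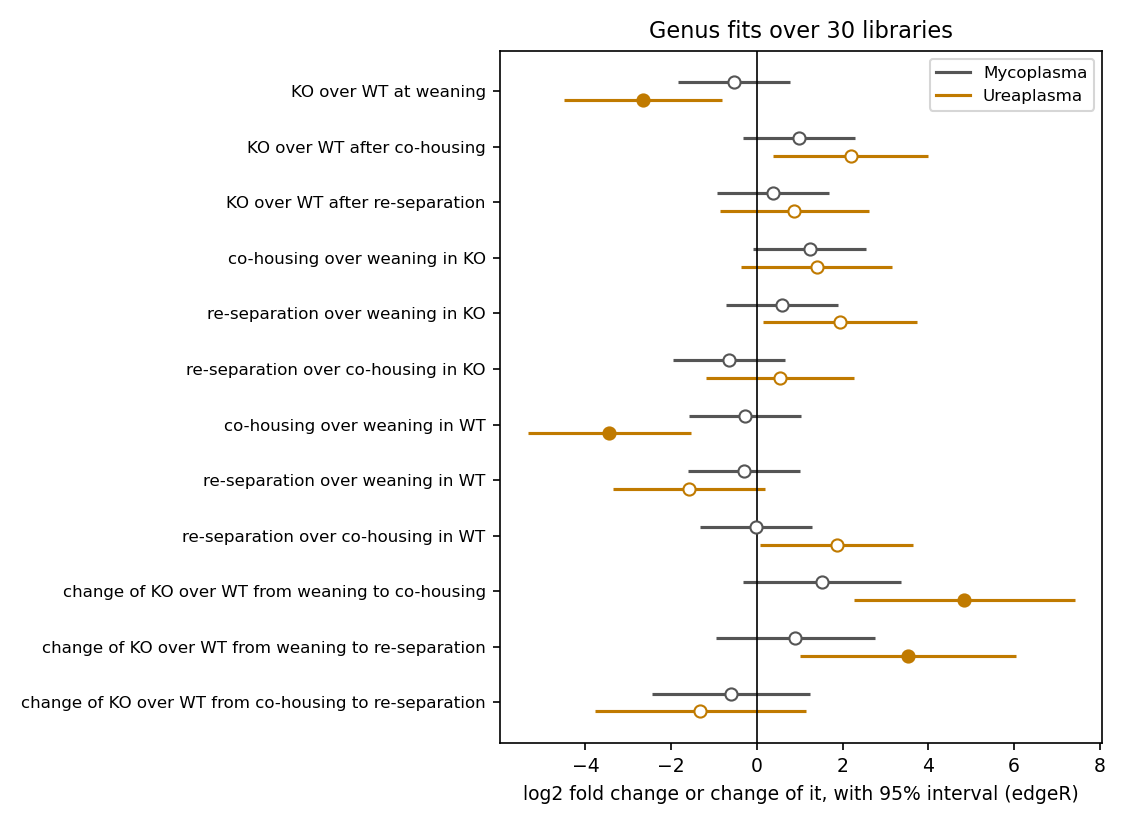
Log2 fold changes of the 2 genera for 9 comparisons and, in the lowest 3 lines, changes of the KO over WT fold change between times, from the edgeR fit of 30 libraries; lines are 95% intervals, filled circles have an adjusted p under 0.05 and open circles do not. The filled circles are all Ureaplasma, at -2.65, -3.45, 4.84 and 3.52.

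After re-separation the Ureaplasma share was 0.992%, 0.701%, 0.396%, 0.662% and 2.50% in KO libraries 21 to 25. It was 0.503%, 1.11%, 0.817%, 0.540% and 0.128% in WT libraries 26 to 30. The groups overlapped, with library 25 high and library 30 low. Means were 1.05% ± 0.836 and 0.620% ± 0.369 (SD, n = 5), and the log2 fold change was 0.87 ± 0.87 (edgeR adjusted p = 0.801; 0% of genera called, as above).

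Over weaning, re-separation gave a Ureaplasma log2 fold change of 1.94 ± 0.90 in KO (edgeR adjusted p = 0.113; 27.8% of genera called) and -1.59 ± 0.89 in WT (edgeR adjusted p = 0.187; 12.5% called). The genotype difference changed by 3.52 ± 1.26 between these samplings (edgeR adjusted p = 0.0443), 1 of 13 genera called, 18.1% of those tested. That call was kept under 11 of 28 alternatives and 6 of 20 single omissions, all with the same sign (2.72 to 3.89), with adjusted p-values from 0.0275 to 0.126. Among the libraries whose omission ended it, library 25 had the largest effect on the value (3.07, edgeR adjusted p = 0.124). Weaning libraries 1, 2, 3, 7, 8 and 10 and re-separation libraries 21, 22, 24, 26, 28, 29 and 30 also ended it, with values of 3.17 to 3.71.

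Over co-housing, re-separation gave a Ureaplasma value of 0.54 ± 0.87 in KO (edgeR adjusted p = 0.653; 19.4% of genera called). Without library 11 it was 3.22 and called (edgeR adjusted p = 0.0133). In WT it was 1.86 ± 0.90 (edgeR adjusted p = 0.335; 1.39% called). The change of the genotype difference was -1.32 ± 1.23 (edgeR adjusted p = 1.00; 0% called), and 1.36 without library 11. Comparisons that share a group share its libraries, so these values are not independent of one another.

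From the highest, Ureaplasma group means were 1.36% (WT at weaning), 1.08% (KO after co-housing), 1.05% (KO after re-separation), 0.620% (WT after re-separation), 0.349% (KO at weaning) and 0.202% (WT after co-housing). No neighbours in this order differed by more than the larger of their SDs. That says nothing of groups further apart, such as WT at weaning and WT after co-housing at its opposite ends. The coefficient of variation of Ureaplasma in KO after co-housing was 1.92 and in the other groups 0.595 to 0.833.

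Fitted as single variants, no member was called. In the weaning and co-housing set 292 variants were tested. The Ureaplasma variant gave -2.60 ± 1.32 for KO over WT at weaning (edgeR adjusted p = 0.126; 20.9% of variants called) and 2.56 ± 1.32 after co-housing (edgeR adjusted p = 0.390; 1.03% called). For co-housing over weaning it gave 1.98 ± 1.29 in KO (edgeR adjusted p = 0.266; 27.1% called) and -3.17 ± 1.35 in WT (edgeR adjusted p = 0.0966; 0.685% called). The WT value has the same reads behind it as the called genus. Only 2 of 292 variants were called there by edgeR, and DESeq2, which called 34, gave -3.40 and an adjusted p of 0.0198 for it.

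The Mycoplasma variant gave, in the same order, -0.33 ± 0.87, 1.07 ± 0.88, 1.54 ± 0.89 and 0.13 ± 0.87, with edgeR adjusted p-values from 0.191 to 0.954. After re-separation, over 278 variants of which 1.44% were called, the Ureaplasma variant gave 0.68 ± 0.61 (edgeR adjusted p = 0.712) and the Mycoplasma variant 0.29 ± 0.63 (edgeR adjusted p = 0.832).

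The balance of the 2 genera within a library does not depend on how libraries are scaled. It was expressed as the log2 ratio of Mycoplasma to Ureaplasma reads, with 0.5 added to each. The ratio of reads ran from 2.38 in library 27 to 1345 in library 13. At weaning the log2 ratio was 3.99, 4.84, 4.47, 2.57 and 5.51 in KO and 1.86, 1.73, 2.45, 3.10 and 3.00 in WT. Library 4 was the only KO library within the WT range. The means, 4.28 ± 1.10 and 2.43 ± 0.63 (SD, n = 5), differed by 1.85 (two-sided exact permutation p = 0.0238, or 0.107 after adjustment over 9 comparisons). Without library 4 they differed by 2.28 (exact permutation, adjusted p = 0.0357). That omission removes the only overlap, which fixes the exact p at the smallest the remaining libraries allow, so it adds no support.

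In WT mice after co-housing the log2 ratio was 4.93, 5.37, 8.57, 3.77 and 6.27, so that every library lay above every WT weaning library. The mean was 2.43 at weaning and 5.78 ± 1.80 (SD, n = 5) after co-housing, a difference of 3.36 (two-sided exact permutation p = 0.00794, the smallest the design allows; adjusted p = 0.0714). In KO mice after co-housing it was 1.52, 7.22, 10.3, 5.26 and 6.21, with library 11 below and the other 4 above the KO weaning median of 4.47. That difference of means was 1.83 (exact permutation p = 0.270; adjusted p = 0.347). None of the 9 comparisons passed adjustment with all libraries. One comparison alone could not have passed, because the smallest exact p, 0.00794, adjusts to 0.0714.

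After re-separation the log2 ratio was 1.63, 1.96, 5.72, 4.28 and 1.95 in KO, and 4.19, 1.25, 3.78, 4.74 and 5.63 in WT. The genotypes overlapped, and the difference of means was -0.81 (exact permutation p = 0.492; adjusted p = 0.554). In WT the ratio stood 1.49 above weaning (exact permutation, adjusted p = 0.232), or 2.16 without library 27 (exact permutation, adjusted p = 0.0357). Library 27, at 1.25, lay below the WT weaning range of 1.73 to 3.10, and the other WT re-separation libraries all lay above it. Its omission likewise fixes the exact p at its smallest and adds no support.

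**Figure D4:**
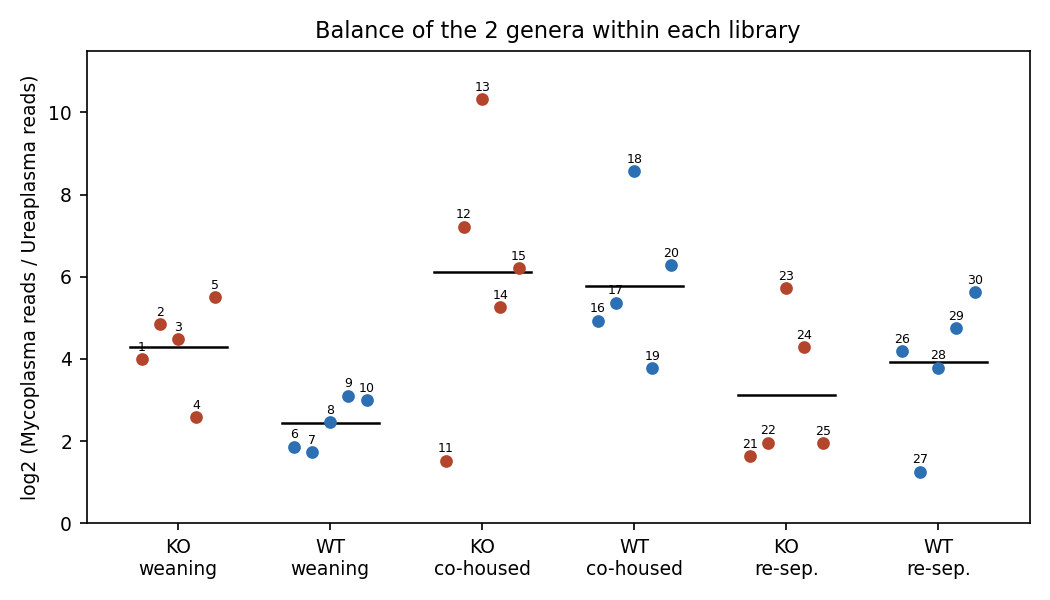
Log2 ratio of Mycoplasma to Ureaplasma reads (y axis; 0.5 added to each count) in each library by group, KO in red and WT in blue, with library numbers and group means as black lines. All 5 WT co-housing libraries, from 3.77 to 8.57, lie above the 5 WT weaning libraries, from 1.73 to 3.10.

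The taxonomy in the labels places Mycoplasmataceae in the class Bacilli, and 5 other Bacilli genera were tested: Lactobacillus, a lactic acid fermenter, the Erysipelotrichales Dubosiella, Candidatus Stoquefichus and an unclassified Erysipelotrichaceae group, and the uncultured lineage RF39. At weaning 2 of 5 were lower in KO (unclassified Erysipelotrichaceae and RF39, both with 0 reads in the KO weaning libraries) and 0 were higher, where 17 of all 72 genera, 23.6%, were called in either direction. The list's median log2 fold change was -3.24, or -2.02 over 4 genera when groups at 0 were set at a floor of 3 counts per library, beside 0 over all 72 genera.

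From weaning to co-housing in WT, 1 of the 5 Bacilli was called, Lactobacillus, which is no larger a share than the 29.2% called over all genera. Its mean share was 0.702% ± 0.646 at weaning and 0.100% ± 0.0745 after co-housing (SD, n = 5; log2 fold change -3.85 ± 1.06, edgeR adjusted p = 0.0105). The list's median was -1.29, beside 0.90 over all genera. In KO, 2 of 5 were called higher (unclassified Erysipelotrichaceae and RF39), both from 0 reads at weaning, where 31.9% of all genera were called. RF39 had reads in 1 of the 5 KO co-housing libraries. The medians there were 5.09 as fitted, or 0.16 over the 3 genera that kept a value with floors, beside 0.74 over all genera.

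After co-housing and after re-separation 0 of the 5 Bacilli were called between the genotypes, and neither were Mycoplasma and Ureaplasma. Only 1.39% and 0% of all 72 genera were called there, so almost any set of genera would show the same. The change of the genotype difference was called for 1 of 5 from weaning to co-housing, where 4.17% of all genera were called, and for 4 of 5 from weaning to re-separation, where 18.1% were. Of those 4, unclassified Erysipelotrichaceae, RF39 and Candidatus Stoquefichus had 0 reads in KO at weaning. Candidatus Stoquefichus also had 0 reads in WT after re-separation and 4 reads, in 1 library, in WT at weaning, so its fitted change rests on groups at or near 0.

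Likeness to other genera was described by Spearman's rho of centred log-ratios over the 30 libraries, among 71 genera. The libraries share depth, library set and the closure of shares to a fixed total, and no test was made. Mycoplasma was most like Helicobacter, a mucus-dwelling genus with a urease in many species (rho 0.63; 0.72 over the 20 weaning and co-housing libraries and 0.35 over the 10 re-separation libraries). Next came Mucispirillum, another mucus dweller (0.45; 0.43 and 0.73), and Bilophila, a sulfite reducer (0.43; 0.44 and 0.58).

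Ureaplasma was most like Parasutterella (rho 0.67; 0.69 and 0.25), Muribaculaceae (0.65; 0.67 and 0.27) and Bacteroides (0.64; 0.68 and 0.41). The values over the 10 re-separation libraries were lower for all 3. Between the 2 members rho was 0.18 over 30 libraries, 0.25 over the 20 and -0.30 over the 10. Ureaplasma was the 17th of 71 genera by likeness to Mycoplasma, and Mycoplasma the 24th by likeness to Ureaplasma.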

How the data were processed

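The authors deposited raw counts: for each sequence variant, the reads in each library, with a taxon label. Their name points to DADA2 as the denoiser, and R 4.5.1 and limma are listed per the submitters' processing notes without a role. Its settings, any read filter and the reference for taxon names were not given in the sources used here. All 30 columns were used. Variants named mitochondria were left out of totals and tests, and counts were summed to the lowest named rank up to genus.

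Features with at least 10 reads in at least 3 libraries were tested with edgeR 4.0.16 in R 4.3.3 (robust glmQLFit and glmQLFTest, TMMwsp scaling factors, 1 coefficient per group, Benjamini-Hochberg adjustment over all features tested, threshold 0.05). Standard errors are the absolute log2 fold change over the square root of F. Genera were fitted over 30 libraries, and variants within each library set. Both genera and each variant past the filter are named, with the 3 genera most like each by Spearman's rho. Members and lists were chosen with earlier results of these data known. Single values were compared by exact two-sided permutation tests, over 252 orderings for 5 against 5 libraries and fewer where a library was left out. DESeq2 1.42.0, limma-voom (limma 3.58.1), other scalings and omission of libraries were alternatives. Fits were tested on simulated data. No library repeated another (chi-square per degree of freedom at least 28.5 over 60 pairs within groups). Reads were amplified by PCR with no molecular identifiers and are not independent, so the Wilson intervals and the floors cover counting error alone. The edgeR intervals come from the fit and carry the spread between libraries. Other steps ran in Python 3.11.15 (scipy 1.17.1; pandas 2.3.3; matplotlib 3.10.9; numpy 2.4.6).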

Additional observations from a re-analysis of the deposited data

Results flagged for a closer look

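Among the 18 sets of 5 values examined for a library far from its group (2 shares and their ratio in 6 groups), 2 stood out. The cut-off, a gap of 0.71 of the range, passes about 1 in 20 sets of normally distributed values. Shares on a linear scale need not be so distributed. The ratio is made from the shares, so the sets are not independent. Ureaplasma in KO library 11 after co-housing, at 4.77%, lay far above the next library of its group, at 0.263%. Ureaplasma in KO library 25 after re-separation, at 2.50%, lay above the next, at 0.992%, a gap of 0.716 of the range and so barely past the cut-off.

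By the interaction test of edgeR, 2 changes of the Ureaplasma difference between the genotypes were called. From weaning to co-housing the change was 4.84 on the log2 scale, with 2.14 and no call without library 11. From weaning to re-separation it was 3.52, where the 2 samplings also differ in library set. That call was kept under only 11 of 28 alternatives and 6 of 20 single omissions.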

How the results depend on the processing

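Over 43 log2 values of members, 786 values were computed under alternatives, of which 703 kept direction and side of the threshold, 46 changed sign, 28 lost a call and 9 gained one. None of the 4 called values changed sign. No paired analysis was possible because the labels do not say which libraries came from the same mouse. With total reads as the scale, Mycoplasma changed sign for KO over WT at weaning (0.45 for the genus and for the variant), co-housing over weaning in WT (0.64), re-separation over weaning in WT (0.33) and the change of KO over WT from weaning to re-separation (-0.28), as did Ureaplasma for re-separation over co-housing in KO (-0.039), and Ureaplasma lost its calls at weaning (-1.96) and for the change to re-separation (2.72). DESeq2 size factors in edgeR and DESeq2 itself turned Mycoplasma to 0.51 for re-separation over co-housing in WT, and the Mycoplasma variant to 0.062 at weaning and -0.11 for co-housing over weaning in WT. The first ended the Ureaplasma calls at weaning (-2.47) and for the change to re-separation (3.31), and DESeq2 the latter (3.31). Limma-voom gave Mycoplasma 0.033 for re-separation over co-housing in WT, Ureaplasma 0.37 for the change from co-housing to re-separation, 3.22 (call lost) for that from weaning to co-housing and -0.32 for co-housing over weaning in KO, and the variants -0.12 (Ureaplasma, same) and -0.070 (Mycoplasma, re-separation). Fits of only the groups compared gave Mycoplasma 0.11 for re-separation over co-housing in WT, Ureaplasma -2.61 at weaning (call lost) and the Mycoplasma variant 0.21 at weaning and -0.085 for co-housing over weaning in WT, which was -0.041 without a filter on low counts. Centred log-ratios gave Mycoplasma -0.19 for re-separation over weaning in KO, and Ureaplasma -0.89 for co-housing over weaning in KO, -2.18 at weaning and -4.18 for co-housing over weaning in WT (both calls lost). Without libraries 1, 5, 11 and 19, Mycoplasma gained a call for co-housing over weaning in KO (2.14). Ureaplasma then stood at -0.155 for KO over WT after co-housing (variant -0.22), 1.01 for the change from co-housing to re-separation, 2.88 (call lost) for that from weaning to co-housing, -0.92 for co-housing over weaning in KO (variant -0.75), and at called values of 3.22 and 2.22 for re-separation over co-housing in KO and WT. The cause was not tested for any of these.

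Leaving out 1 library at a time, Mycoplasma ran from -0.00438 to 0.61 for KO over WT after re-separation (variant -0.20 to 0.54), 0.82 to 1.78 for co-housing over weaning in KO, -0.61 to 0.069 for that in WT (variant -0.14 to 0.52), -0.60 to 0.042 for re-separation over weaning in WT and -0.20 to 0.33 for re-separation over co-housing in WT, and its variant from -0.79 to 0.037 at weaning. Ureaplasma ran from -2.91 to -2.30 at weaning, -0.51 to 2.54 for KO over WT after co-housing (variant -0.48 to 3.07), -1.30 to 1.71 for co-housing over weaning in KO (variant -1.05 to 2.37), 0.058 to 3.22 for re-separation over co-housing in KO, and 2.14 to 5.20, 3.07 to 3.87 and -1.996 to 1.36 for the changes of the genotype difference from weaning to co-housing, weaning to re-separation and co-housing to re-separation. The log2 ratio ran from -0.73 to 1.47 for KO over WT after co-housing, 1.54 to 2.28 at weaning and 1.06 to 2.16 for re-separation over weaning in WT. Counts of called genera ran over alternatives from 8 to 27 at weaning (17 as reported), 0 to 2 after co-housing (1), 0 to 1 after re-separation (0), 11 to 28 (23), 13 to 20 (20) and 8 to 20 (14) for the KO comparisons of co-housing over weaning, re-separation over weaning and re-separation over co-housing, 18 to 35 (21), 6 to 18 (9) and 1 to 11 (1) for those in WT, and 1 to 8 (3), 10 to 13 (13) and 0 to 1 (0) for the changes of the genotype difference. For variants they ran from 15 to 62 at weaning (61), 0 to 12 after co-housing (3), 11 to 64 (79) and 2 to 57 (2) for co-housing over weaning in KO and WT, and 4 to 23 after re-separation (4). Ureaplasma shares near 0.02% rest on 9 reads, and depth limits what lies below.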
